A study of Mus musculus with 9 samples.

Results

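Tang-shen Formula (TSF) is a mixture of Chinese medicinal herbs. The kidney cortex of diabetic db/db mice that received it was compared here with that of db/db mice on saline. It uses the 6 db/db arrays of a series of 9, chosen by their labels, and covers every gene that could be measured. All mice were 20-week-old males on the C57BLKS/J background, and RNA came from kidney cortex. Both groups were homozygous for the db mutation of the leptin receptor gene, which makes mice obese and diabetic. The treated group received TSF into the stomach at 2.4 g/kg/day for 12 weeks, and the other group received saline. The labels count 9 mice in each db/db group and call the 3 arrays per group biological replicates. They do not say how the 3 were picked, and they give no hour of tissue collection. The remaining 3 arrays are lean db/m mice, which carry 1 mutant copy; here they lend their spread to the test and a reference level. The series set out to find genes through which the formula acts on diabetic kidney injury.

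The kidney cortex is mostly proximal tubule, which reabsorbs glucose, amino acids and phosphate and makes glucose in fasting. It also holds glomeruli, distal tubules, collecting ducts, vessels and scattered immune cells. In diabetic kidney disease the glomerulus loses podocytes, matrix builds up under transforming growth factor beta, and tubules turn on injury genes. Steroid hormones set the expression of many tubular genes, glucocorticoids and androgens among them. The cortex also has a strong daily clock.

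Levels are given as log2(intensity + 1), and differences as db/db+TSF minus db/db on that scale, so 1 is a 2-fold higher level in treated mice and the difference of a dim gene is understated. The tissue label was checked first. The phosphate transporter gene Slc34a1, a proximal tubule marker, lay between 12.12 and 12.27 in the 6 arrays, and Umod, the uromodulin gene of the thick ascending limb, between 11.42 and 11.97. Podocyte genes were present at lower levels, with Nphs1 (nephrin) between 6.37 and 6.69. Lepr, the mutated receptor gene, was dim. It measured 3.87, 3.66 and 4.35 with saline, 3.72, 3.09 and 3.25 with TSF and 3.83 ± 0.20 in db/m (SD, n = 3). The db mutation alters splicing of the long form, so a signal for the whole gene does not check the genotype.

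A pair of arrays stood apart within their own groups. In db/db replicate 3, 12 neutrophil markers had a summed intensity of 850, against 143 and 146 in the other db/db arrays and 141 to 179 in db/db+TSF. The hormone gene Epo (erythropoietin) measured 3.53, 3.99 and 8.97 in db/db replicates 1 to 3, and 4.52, 4.17 and 3.67 in db/db+TSF. In db/db+TSF replicate 2 some single genes were low: the brush-border protease gene Mep1b measured 6.88, 3.31 and 6.77 in the 3 treated arrays and 7.11, 6.72 and 6.87 in db/db. The 20 proximal tubule markers as a whole were not low there, with a summed intensity of 47200 against 47100 in each of its partners. The first principal component of the 6 arrays took 36.2% of the variance. It placed db/db at -10.5, -11.1 and -13.2 and db/db+TSF at -0.439, 25 and 10.2, so replicate 1 of the treated group lay nearer to db/db than its partners did. That array's mean correlation over genes was 0.9930 with its own group and 0.9933 with db/db. The part of these arrays in the results was measured by leaving them out, and values without both are given where they matter.

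No gene passed the adjusted threshold. Of 17740 genes tested, 0 (0.00%) had a limma adjusted p under 0.05, and the smallest was 0.145. At an unadjusted p under 0.05 there were 883 genes higher in db/db+TSF (4.98%) and 1196 lower (6.74%), with no claim for any of them. All 3 treated arrays lay above all 3 saline arrays in 1386 genes (7.81%) and below them in 2182 genes (12.3%). Differences were small: the 1st and 99th percentiles were -0.52 and 0.46, while 4 genes averaged 2-fold higher or more and 17 averaged 2-fold lower or more. The median SE of a difference was 0.115. For 17473 genes (98.5%) the 95% confidence interval lay within 2-fold in either direction, and for 15603 (88.0%) within 1.5-fold. What follows therefore describes measured differences, none of which passed; the adjusted p-values are from limma over all genes tested.

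**Figure D1:**
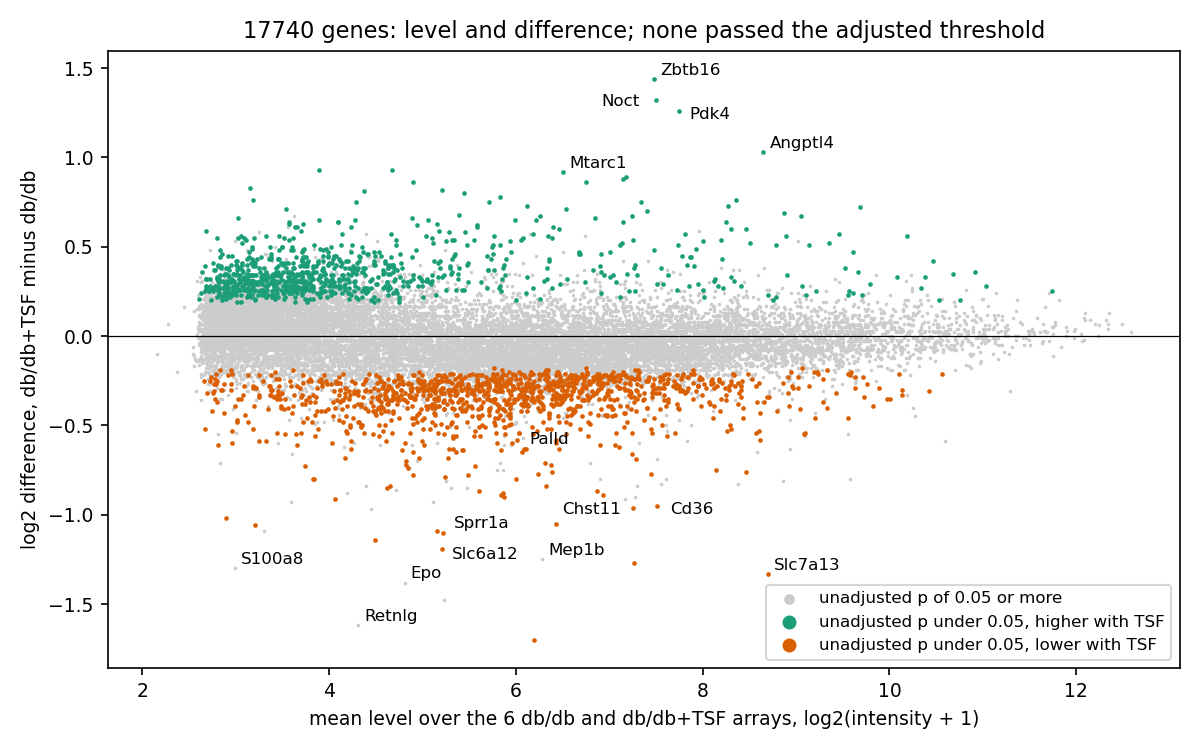
Each of 17740 genes is a point, with its mean level over the 6 arrays, log2(intensity + 1), on the x axis and its log2 difference, db/db+TSF minus db/db, on the y axis. Green and orange points have an unadjusted p under 0.05; 0 genes passed after adjustment, and the 4 labelled genes above 1 are Zbtb16, Noct, Pdk4 and Angptl4.

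Zbtb16, a zinc-finger transcription factor gene (Entrez gene 235320) that glucocorticoids raise in many tissues, had the largest positive difference. It measured 6.73, 6.38 and 7.16 in db/db and 8.72, 7.74 and 8.13 in db/db+TSF. The groups do not overlap, and the lean mice at 7.51 ± 0.34 (SD, n = 3) lay between them. The difference was 1.44 (95% interval 0.87 to 2.01, limma adjusted p = 0.19), a 2.72-fold higher mean. It was 1.87 without the pair of arrays that stand apart. That pair holds the highest saline and the lowest treated value of Zbtb16, so the difference had to grow without it. Published work on this formula, recalled and not read here, reports Zbtb16 lower after treatment; the order here is the opposite and rests on the deposited labels. Because that work chose Zbtb16 on this treatment, its place among the leading genes is not independent of it.

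Noct, which encodes the rhythmic phosphatase nocturnin, measured 7.02, 6.24 and 7.25 in db/db and 8.54, 7.71 and 8.21 in db/db+TSF. The groups do not overlap, and both lie above db/m at 5.90 ± 0.38 (SD, n = 3); the difference was 1.32 (SE 0.28, limma adjusted p = 0.233). Angptl4, an inhibitor of lipoprotein lipase, measured 8.07, 7.53 and 8.80 against 9.45, 8.82 and 9.22, a difference of 1.03 (SE 0.29, limma adjusted p = 0.284). Pdk4, the kinase that holds back pyruvate oxidation, measured 7.07, 6.16 and 8.13 against 9.02, 7.77 and 8.35. Its groups overlap, since db/db replicate 3 exceeds db/db+TSF replicate 2, and its difference of 1.26 has a 95% interval of 0.17 to 2.36. In all 4 of these genes db/db replicate 2 was the lowest of the 6 arrays and db/db+TSF replicate 1 the highest.

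Other genes with large positive differences and non-overlapping groups had varied roles. Mtarc1, a mitochondrial molybdenum enzyme, measured 6.06, 6.42 and 5.65 in db/db and 6.93, 7.10 and 6.87 in db/db+TSF. Its difference was 0.92 (SE 0.18, limma adjusted p = 0.19), and treated mice lay further from db/m, at 4.77 ± 0.22 (SD, n = 3), than saline mice did. The stress kinase gene Plk3 was nearly level in db/db, at 6.69, 6.73 and 6.69, and measured 8.07, 7.29 and 7.40 in db/db+TSF. Ccdc153, a coiled-coil gene, differed by 0.86 and the repressor gene Nfil3 by 0.80.

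Most of the large negative differences rested on the arrays that stand apart. Of the 17 genes at least 2-fold lower in db/db+TSF, 8 had db/db replicate 3 at least 2-fold above the other db/db arrays. Another set of 8, which shares Sycn and Nccrp1 with the first, had db/db+TSF replicate 2 at least 2-fold below its partners. The 3 genes in neither set were Sprr1a, Gsdmc3 and an immunoglobulin light chain gene. Without the 2 arrays, 11 genes lay 2-fold or more below db/db and 14 lay that far above.

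Sprr1a, a cornified-envelope protein gene that injured epithelium turns on, measured 5.77, 5.64 and 5.91 in db/db and 5.26, 4.39 and 4.36 in db/db+TSF. The groups do not overlap, and 2 of the treated arrays lay close to db/m at 4.13 ± 0.39 (SD, n = 3). The difference was -1.10 (SE 0.24, limma adjusted p = 0.237) and -0.89 without both arrays. Slc6a12, the betaine transporter gene, measured 5.39, 5.54 and 6.47 against 4.80, 4.24 and 4.79, a difference of -1.19 that was -0.67 without both arrays. Chst11, a chondroitin sulfotransferase gene, measured 7.82, 7.98 and 7.40 against 6.77, 6.51 and 7.03. Its difference of -0.96 (SE 0.18, limma adjusted p = 0.19) was -1.0 without both arrays, and db/m lay above both groups at 8.85 ± 0.24 (SD, n = 3).

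Cd36, the fatty acid translocase gene, was even in db/db, at 7.98, 8.03 and 7.96, and measured 7.52, 6.11 and 7.49 in db/db+TSF. Cyp7b1, a steroid hydroxylase gene, measured 6.70, 7.36 and 6.82 against 6.40, 4.74 and 6.58. In both genes the groups do not overlap, db/db+TSF replicate 2 is far below its partners, and the difference was smaller without both arrays: -0.50 in place of -0.95 for Cd36 and -0.54 in place of -1.05 for Cyp7b1. Both genes were higher in db/m, at 10.03 ± 0.13 and 9.80 ± 0.25 (SD, n = 3).

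**Figure D2:**
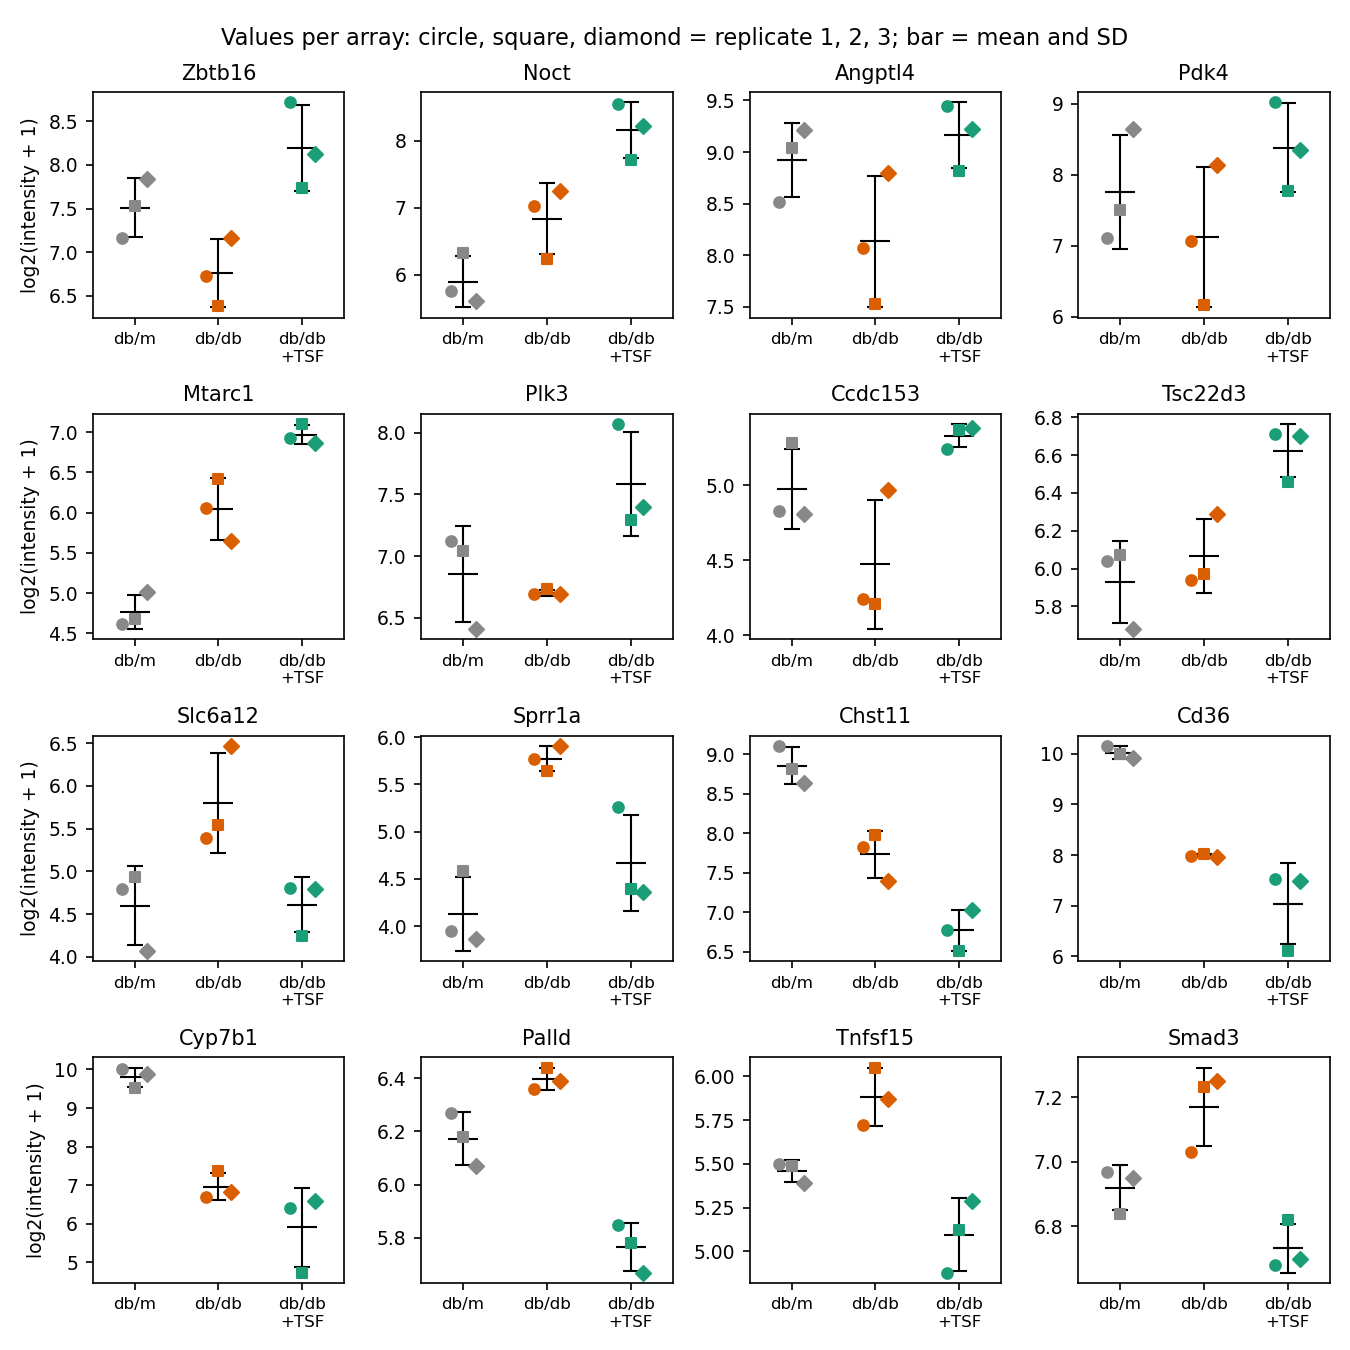
The level of 16 genes in log2(intensity + 1), y axis, is plotted for each array of db/m (grey), db/db (orange) and db/db+TSF (green); circle, square and diamond are replicates 1, 2 and 3 and the bar is the mean with its SD (n = 3). The db/db and db/db+TSF points do not overlap in 15 of these genes and do in Pdk4, and the low square of db/db+TSF in Cd36 and Cyp7b1 is replicate 2.

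The genes with the smallest p had smaller but tighter differences. Palld, the actin-bundling palladin gene, measured 6.36, 6.44 and 6.39 in db/db and 5.85, 5.78 and 5.67 in db/db+TSF, a difference of -0.63 (SE 0.09, limma adjusted p = 0.145). Tnfsf15, a tumour necrosis factor family cytokine gene, measured 5.72, 6.05 and 5.87 against 4.88, 5.12 and 5.29, and Serpinb8, a protease inhibitor gene, 5.51, 5.67 and 5.64 against 4.89, 4.78 and 5.12. Rab30, a Golgi GTPase gene, had the smallest p on the higher side among the genes of the naming rule, at 5.45, 5.53 and 5.46 against 6.01, 6.0 and 6.13. In these 4 genes the groups are separated by more than the range within either. F3, the tissue factor gene that starts coagulation, measured 7.71, 7.63 and 7.50 against 7.22, 7.02 and 7.18 (difference -0.47, SE 0.09, limma adjusted p = 0.19). Timm10b (0.61) is uncertain, since its dimmer probe set differed by -0.06.

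The microRNA gene Mir99b, singled out after its values were seen, had the same adjusted p as Palld. Its probe set reads the gene and does not tell the arms of the hairpin apart, so both mature forms are shown, from RefSeq (GRCm38.p6, plus strand, chr17:17830194-17830215 and chr17:17830232-17830253), with the seed, bases 2 to 8, in capitals:
mmu-miR-99b-5p: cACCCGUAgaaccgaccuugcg
mmu-miR-99b-3p: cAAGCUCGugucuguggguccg
Mir99b measured 5.29, 5.53 and 5.50 in db/db and 5.98, 6.48 and 6.19 in db/db+TSF, with db/m at 5.89 ± 0.05 (SD, n = 3). The difference was 0.78 (SE 0.13, limma adjusted p = 0.145). The groups do not overlap. The family of the 5p arm is known for targeting the kinase gene Mtor.

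Glucocorticoid receptor targets are genes that cortisol or corticosterone raises through the receptor. Of 27 tested, 20 lay above 0 and 7 below, 7 had all treated arrays above all saline arrays (7.81% of all genes do), 0 the reverse (12.3% of all genes), and 0 passed. The median difference was 0.22, against -0.02 over all genes tested, where 43.9% lay above 0; the median was 0.21 after quantile normalization and 0.16 with array medians set equal. The list was known from earlier results of these data, so its direction is no independent evidence. The 7 non-overlapping members were Zbtb16, Angptl4, Tsc22d3, Pck1, Mt1, Glul and Errfi1.

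Tsc22d3, the leucine zipper gene GILZ that carries part of the anti-inflammatory action of glucocorticoids, measured 5.94, 5.97 and 6.29 in db/db and 6.71, 6.46 and 6.70 in db/db+TSF (difference 0.56, limma adjusted p = 0.247). Sgk1, a kinase that raises sodium transport, measured 8.39, 8.26 and 8.94 against 9.41, 8.92 and 9.33; its groups overlap by the margin between 8.94 and 8.92. Other standard targets overlapped between the groups. Fkbp5, a receptor co-chaperone gene, measured 6.35, 6.25 and 7.04 against 7.13, 6.73 and 6.88, while Klf9 differed by 0.00 (95% interval -0.29 to 0.29), Dusp1 by 0.04 and Klf15 by -0.03. Several members were also high in db/db replicate 3. The median deviation of the list from the 6-array mean was -0.24, -0.19 and 0.10 in db/db. In db/db+TSF it was 0.29, -0.02 and 0.07, so the groups overlapped at the level of the list. On this measure the 2 arrays that stand apart are the highest saline and the lowest treated array. Without both the list median was 0.42. Hormone levels were not analysed here.

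The consensus glucocorticoid response element, AGAACA and TGTTCT with any 3 bases between them, was searched on both strands. It lay in 3 of 32851 RefSeq promoter windows (0.00913%), each 250 bases before to 50 after a start, and in 1 of the 24 list members with a window, Sgk1. This stretch of the Sgk1 window, chr10:21993693-21993722 (GRCm38.p6, plus strand), holds it in capitals, at -189 to -175 from 1 of the 6 annotated starts:
Sgk1: atgcggaaAGAACAGAATGTTCTcggagat
The other members' windows do not hold these letters, which says nothing of sites elsewhere.

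Circadian clock genes lay on both sides of 0. Of 20 tested, 11 lay above 0 and 9 below; 7 had non-overlapping groups on the higher side and 4 on the lower, against 7.81% and 12.3% of all genes. The median was 0.03, and -0.03 with array medians set equal. On the higher side were Noct, Nfil3, the repressor gene Cry1 (4.31, 4.03 and 4.78 in db/db against 5.09, 4.90 and 4.84), Wee1 (0.40), Usp2 (0.25), Bhlhe40 (0.25) and Rora (0.08). On the lower side were Nr1d1, Dbp, Bhlhe41 (-0.41) and Tef (-0.20).

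Nr1d1, the repressor REV-ERB alpha, measured 8.73, 8.85 and 7.96 in db/db and 7.66, 7.80 and 7.83 in db/db+TSF. Its difference was -0.75 (SE 0.22, limma adjusted p = 0.284). Dbp, an output transcription factor gene that peaks near the same phase as Nr1d1, measured 8.87, 9.27 and 8.40 against 7.82, 8.12 and 8.31 (-0.76). In both, db/db replicate 3 was the saline array nearest to the treated ones. Arntl, the activator BMAL1 that REV-ERB alpha represses, measured 4.75, 4.76 and 5.51 against 5.96, 5.20 and 5.29, with overlap. The part of the hour of collection in these differences was not tested, and the labels do not give it.

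Genes of the unfolded protein response in the endoplasmic reticulum (ER) lay mostly below 0. Of 21 tested, 14 lay below 0 (56.1% of all genes do), 7 had all treated arrays below all saline arrays (against 12.3%) and 2 the reverse (Dnajb9, 0.18, and Herpud1, 0.14; against 7.81%). Their median was -0.05, near the -0.02 of all genes, and -0.09 without db/db replicate 3; 0 passed. Sdf2l1, a chaperone complex subunit, measured 6.83, 6.71 and 6.88 in db/db and 6.41, 6.19 and 6.19 in db/db+TSF (difference -0.55, SE 0.14, limma adjusted p = 0.284). Xbp1, the transcription factor of the IRE1 branch, measured 9.49, 9.51 and 9.41 against 9.23, 9.07 and 9.00 (-0.37). Hspa5, the master chaperone BiP, measured 7.43, 7.30 and 7.30 against 7.19, 6.96 and 7.09. Creld2 (-0.27), the sensor kinase gene Eif2ak3 (-0.25), the disulfide isomerase gene Pdia6 (-0.23) and Manf (-0.19) complete the 7. Of the ATF4 branch, Chac1, Trib3, Asns and Atf4 itself lay above 0 and Ddit3 below, each with overlapping groups.

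The ER stress response element is the textbook site for ATF6 and XBP1 in chaperone promoters. Its letters, CCAAT and CCACG with any 9 bases between them on either strand, lay in 39 of 32851 promoter windows (0.119%) and in those of 6 of the 19 list members with a window: Hspa5, Hsp90b1, Dnajc3, Pdia6, Calr and Creld2. All 6 lay below 0 (56.1% of all genes do), and 3 had all treated arrays below all saline arrays (12.3% of all genes do). Hsp90b1 (-0.13), Dnajc3 (-0.09) and Calr (-0.05) had overlapping groups. The part of the element in these differences was not tested. The promoters of those 3 are shown from -160 to -41 relative to the start, with the element in capitals, because these members both carry the element and have non-overlapping groups (RefSeq, GRCm38.p6, plus strand; Creld2 carries the element on the reverse strand). They are chr2:34771930-34772049, chr12:17266429-17266548 and chr15:88819486-88819605:
Hspa5: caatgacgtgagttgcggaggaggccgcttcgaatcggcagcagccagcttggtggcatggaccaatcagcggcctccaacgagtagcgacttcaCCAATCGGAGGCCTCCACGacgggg
Pdia6: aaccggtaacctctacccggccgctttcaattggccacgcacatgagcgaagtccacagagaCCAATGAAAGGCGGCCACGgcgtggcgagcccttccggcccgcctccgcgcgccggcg
Creld2: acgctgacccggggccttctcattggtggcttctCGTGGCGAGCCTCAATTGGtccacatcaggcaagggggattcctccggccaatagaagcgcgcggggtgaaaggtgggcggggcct
The element lies at -65 to -47 in Hspa5, -98 to -80 in Pdia6 and -126 to -108 in Creld2. A match is a description of letters and not a measured site.

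**Figure D3:**
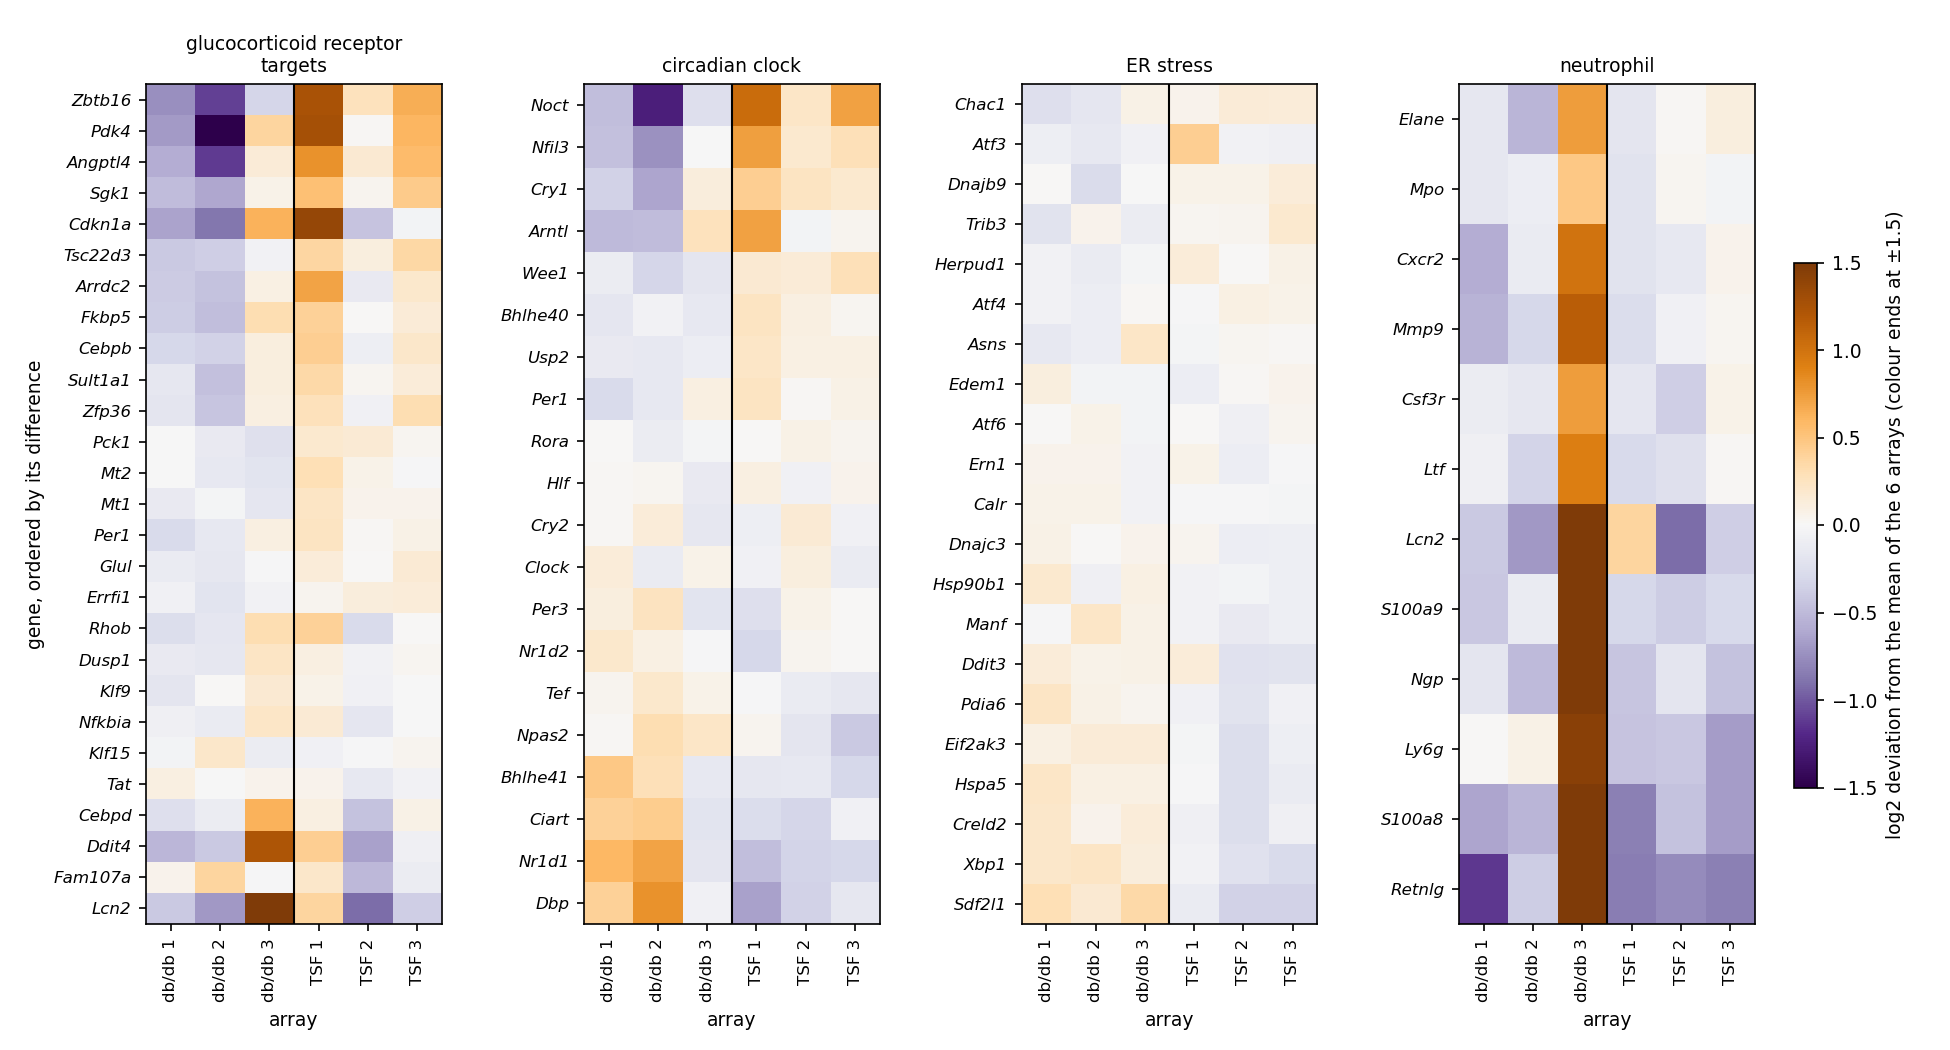
Each cell is the log2 deviation of a gene in 1 array from its mean over the 6 arrays, for the tested members of 4 lists, genes in order of their difference and arrays on the x axis, with db/db left of the line and db/db+TSF (TSF) right of it. All 12 genes of the neutrophil panel are above their mean in db/db replicate 3, while the top genes of the glucocorticoid and clock panels are above it in all 3 db/db+TSF arrays.

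Autophagy and lysosome genes had small positive differences. Of 22 tested, 14 lay above 0 (43.9% of all genes do), 5 had non-overlapping groups on the higher side (against 7.81%) and 1 on the lower (against 12.3%). The median was 0.06, against -0.02 over all genes, and 0.00 with array medians set equal. The lysosomal enzyme genes Hexa (8.76, 8.54 and 8.66 against 8.92, 8.84 and 8.81) and Ctsd (10.85, 10.81 and 10.80 against 11.00, 10.93 and 10.96), the membrane protein genes Lamp1 (0.12) and Lamp2 (0.07), and Gabarapl1 (0.12) were the 5. Atg16l1, needed for lipidation of LC3, was the 1 on the lower side, at 6.45, 6.43 and 6.41 against 6.30, 6.10 and 6.23. The LC3 gene Map1lc3b differed by 0.10 and the cargo receptor gene Sqstm1 by 0.01, a sign that turned with array medians set equal. The initiator gene Becn1 differed by -0.11 and Sirt1 by -0.09, with overlapping groups.

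Transforming growth factor beta signalling leads to matrix deposition in the diabetic kidney through Smad3. Of 21 genes of the pathway, 16 lay below 0 (56.1% of all genes do), 6 had all treated arrays below all saline arrays (against 12.3%) and 1 the reverse (against 7.81%). The median was -0.13, against -0.02 over all genes. It was -0.08 after quantile normalization, -0.07 without db/db replicate 3 and -0.06 without both arrays. Smad3 measured 7.03, 7.23 and 7.25 in db/db and 6.68, 6.82 and 6.70 in db/db+TSF. The groups do not overlap; the difference was -0.44 (95% interval -0.64 to -0.23, limma adjusted p = 0.237), and -0.44 without both arrays. The receptor gene Tgfbr2 differed by -0.30, Ltbp1, which tethers the latent ligand to matrix, by -0.27, and Smad2 by -0.19, each with non-overlapping groups. Smad6 (-0.15) and Bmpr2 (-0.05) complete the 6 on the lower side, and Thbs1 (0.14) was the 1 on the higher side. The ligand gene Tgfb1 differed by -0.25 (95% interval -0.56 to 0.06) and the inhibitor gene Smad7 by 0.15, both with overlap. Tgfbr1 (0.06) and Smad4 (0.05) lay above 0 with overlap as well.

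Extracellular matrix genes lay below 0 in 20 of 27 cases (56.1% over all genes), with 6 non-overlapping on the lower side (12.3% over all genes) and 1 on the higher (7.81%). Their median was -0.09, against -0.02 over all genes, -0.05 without db/db+TSF replicate 2, -0.05 after quantile normalization and -0.01 without both arrays. Lox, the collagen cross-linking enzyme gene, measured 4.18, 4.39 and 5.08 against 3.99, 3.80 and 3.96 and was highest in db/db replicate 3. Decorin, Dcn, measured 8.37, 8.37 and 8.23 against 8.07, 7.51 and 8.14. The basement membrane genes Col4a2 (-0.26) and Lamc1 (-0.25), and Col1a2 (-0.28) and Postn (-0.28), were the other non-overlapping members. Genes commonly used to score fibrosis had intervals on both sides of 0: Col1a1 -0.39 to 0.17, Col3a1 -0.16 to 0.37, Col4a1 -0.50 to 0.06 and Fn1 -0.09 to 0.49.

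Tubular injury genes gave no common direction. Of 18 tested, 8 lay above 0 and 10 below (56.1% of all genes lie below). The median of -0.10 was 0.04 when db/db+TSF replicate 2 was left out, 0.06 when db/db replicate 3 was, and 0.13 without both arrays. The median deviation of the list from the 6-array mean was -0.11, -0.03 and 0.15 in db/db. In db/db+TSF it was 0.23, -0.12 and -0.17, so the treated arrays differed among themselves, with replicate 1 high. Havcr1, which encodes the injury marker KIM-1, was dim in all arrays and differed by 0.17 (95% interval -0.15 to 0.49). Lcn2, the NGAL gene, measured 5.47, 5.17 and 7.88 in db/db and 6.25, 4.95 and 5.50 in db/db+TSF; its difference of -0.61 was 0.56 without both arrays. The keratin genes Krt8 (8.70, 8.93 and 8.85 against 8.47, 8.50 and 8.22) and Krt19 (4.52, 4.54 and 4.56 against 4.28, 4.26 and 4.20) were lower beside Sprr1a without overlap. Clu, the chaperone clusterin, was higher, at 7.42, 7.46 and 7.20 against 7.88, 7.74 and 7.59.

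Macrophage and dendritic cell markers lay below 0 in 16 of 19 cases (56.1% over all genes), and 7 of them had all treated arrays below all saline arrays (12.3% of all genes do). The median was -0.16 on the deposited scale and after quantile normalization, and -0.12 without both arrays. Leaving out only the saline array of the high neutrophil markers gave -0.21. Leaving out only replicate 2 of the treated group gave -0.12. In such bulk tissue, fewer cells of a type and less RNA per cell cannot be told apart. The Fc receptor gamma chain gene Fcer1g measured 7.16, 7.27 and 7.52 in db/db and 6.90, 6.94 and 6.92 in db/db+TSF (difference -0.39, SE 0.10, limma adjusted p = 0.284). The pan-macrophage genes Adgre1 (4.64, 4.65 and 4.71 against 4.31, 4.53 and 4.27) and Cd68 (4.99, 5.09 and 4.99 against 4.89, 4.74 and 4.78) lay in the same order. The summed intensity of the 19 markers was 1600, 1540 and 1380 in db/db and 1350, 1290 and 1340 in db/db+TSF. Lyz2, Tyrobp, Laptm5 and Cd14 complete the 7. Markers near 0 with overlapping groups included C1qa (-0.04), C1qb (-0.01), C1qc (-0.05), H2-Ab1 (-0.02), Cx3cr1 (0.03) and Mrc1 (0.09), so the markers did not differ alike. Fcer1g, Lyz2 (6.13, 6.15 and 6.91 against 5.96, 5.42 and 5.43) and Tyrobp (6.22, 6.44 and 6.73 against 6.18, 6.04 and 5.92) are also expressed by neutrophils, and all 3 peak in db/db replicate 3, the array of the high neutrophil markers. Without both arrays Lyz2 differed by -0.45 and Fcer1g by -0.30, in place of -0.80 and -0.39. The part of neutrophil RNA in these differences was not tested.

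Neutrophil markers were set by a single array. All 12 tested lay below 0 with a median of -0.47, which became 0.01 without db/db replicate 3. Retnlg measured 3.18, 3.93 and 8.26 in db/db and 3.48, 3.54 and 3.49 in db/db+TSF, and S100a8, a calprotectin subunit gene, 2.36, 2.45 and 6.10 against 2.16, 2.54 and 2.32. Ly6g, a defining surface marker, was the only member without overlap, at 2.90, 2.97 and 4.33 against 2.45, 2.48 and 2.22, near the dim end of the arrays. T, B and plasma cell markers had a median of 0.00, with Ighm, the immunoglobulin M heavy chain gene, between 8.15 and 9.43 in db/db and between 7.17 and 9.13 in db/db+TSF.

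Cytokine and inflammasome genes showed few shifts. Of 23 targets of NF-kB, 14 lay below 0 (56.1% over all genes) and 2 were lower without overlap (12.3% over all genes): Tnfaip3, a feedback inhibitor of the pathway (5.15, 5.23 and 5.65 against 4.86, 4.86 and 4.75), and the receptor gene Tlr2 (-0.20). Ccl7 (0.24) was the 1 on the higher side (7.81% over all genes). Tnf (-0.08), Ccl2 (-0.05) and Il1b (-0.34, 95% interval -0.83 to 0.14) were dim in all 6 arrays with overlapping groups. Of 14 inflammasome genes, 2 were lower without overlap (12.3% over all genes): the adaptor gene Pycard (5.52, 5.51 and 5.50 against 5.39, 5.24 and 5.12) and the pore-forming Gsdme (-0.30). Nlrp3 differed by -0.18 with overlap. In the interferon list the median was -0.05, and -0.15 without db/db replicate 3 and -0.16 without both arrays. Its members without overlap were Ifit2, lower at 4.89, 4.91 and 4.90 against 4.41, 4.32 and 4.56, and Isg15, higher by 0.23. Of the complement and coagulation genes, 4 of 20 were lower without overlap (12.3% over all genes): F3, the urokinase gene Plau (9.39, 9.20 and 9.47 against 9.14, 8.23 and 9.06), C1ra (-0.43) and Tfpi (-0.22). F10 (0.10) was the 1 higher without overlap (7.81% over all genes).

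The nephron's own markers were close to level. Proximal tubule markers had a median of 0.03, with 12 of 20 above 0, but -0.03 and 8 of 20 with array medians set equal. The 95% interval lay within 2-fold for 19 of the 20; the exception was Slc7a13, a transporter gene that androgens raise, at 6.27 in db/db+TSF replicate 2 and 8.54 and 9.29 in its partners. Podocyte markers had a median of -0.01: Nphs1 differed by 0.14 (95% interval -0.07 to 0.36), Podxl, the glomerular podocalyxin gene, by 0.15 and Actn4 by -0.16. Other cells' markers lay mostly below 0 (56.1% over all genes): 10 of 13 mesangial, pericyte and smooth muscle markers and 13 of 15 endothelial markers. Of these lists 3 and 1 members were lower without overlap (12.3% over all genes). Their medians were -0.09 and -0.10, and -0.05 and -0.06 after quantile normalization. Acta2 measured 8.90, 9.02 and 8.86 against 8.72, 8.53 and 8.85, and Vegfa 8.65, 8.76 and 8.77 against 8.58, 8.45 and 8.39. The mesangial median was -0.05 without db/db+TSF replicate 2, and the endothelial median was -0.03 when that array was left out, -0.04 when db/db replicate 3 was, and -0.02 without both.

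Distal segments showed opposed members. Among 16 loop of Henle and distal tubule genes, 3 were higher without overlap (7.81% over all genes) and 4 lower (12.3%). The lower ones include the claudin genes Cldn10 (8.66, 8.54 and 8.44 against 8.16, 7.68 and 8.28), Cldn16 (-0.29) and Cldn19 (-0.48), which line the paracellular path of the thick ascending limb, and the potassium channel gene Kcnj1 (-0.30). A second, dimmer probe set of Cldn19 differed by 0.04. The higher ones were Calb1, Wnk1 and Pvalb of the distal convoluted tubule. Of 16 collecting duct genes, 9 lay above 0 (43.9% over all genes), and the median was 0.03. Foxi1, the transcription factor of intercalated cells, measured 7.83, 7.72 and 7.43 against 8.10, 8.24 and 7.94. Foxi1 and the principal cell gene Hsd11b2 (0.17) were the 2 higher without overlap (7.81% over all genes). The vasopressin receptor gene Avpr2 of principal cells was the 1 lower (12.3%), at 7.04, 6.75 and 7.01 against 6.54, 6.27 and 6.63. With overlap, the principal cell genes Scnn1a (0.15), Scnn1b (0.17) and Scnn1g (0.03) lay above 0 and the intercalated cell gene Slc4a1 (-0.26) below. The water channel gene Aqp2 differed by -0.53 with overlapping groups.

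Genes of vitamin D action and calcium transport lay above 0 in 10 of 16 cases (43.9% over all genes), with 4 higher without overlap (7.81% over all genes) and 0 lower (12.3%). The median was 0.16, against -0.02 over all genes, but 0.06 without db/db+TSF replicate 2 and 0.00 without both arrays. Calb1, the calcium-binding calbindin gene, measured 10.86, 10.45 and 10.91 in db/db and 11.05, 11.14 and 11.10 in db/db+TSF (difference 0.36, SE 0.14, limma adjusted p = 0.373). The epithelial calcium channel gene Trpv5 measured 8.01, 7.97 and 7.94 against 8.28, 8.54 and 8.01, and the intestinal-type calbindin gene S100g 10.37, 10.26 and 10.25 against 10.57, 10.61 and 10.38. Calb1, Trpv5 and S100g lay above db/m in both db/db groups. The claudin gene Cldn14 (0.17) completes the 4 and lay below db/m. Its mean was 3.18 in lean mice, 2.89 with saline and 3.06 with TSF. The members furthest below 0 were Cyp24a1 (-0.31), Fgfr1 (-0.24) and Casr (-0.13), each with overlap.

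**Figure D4:**
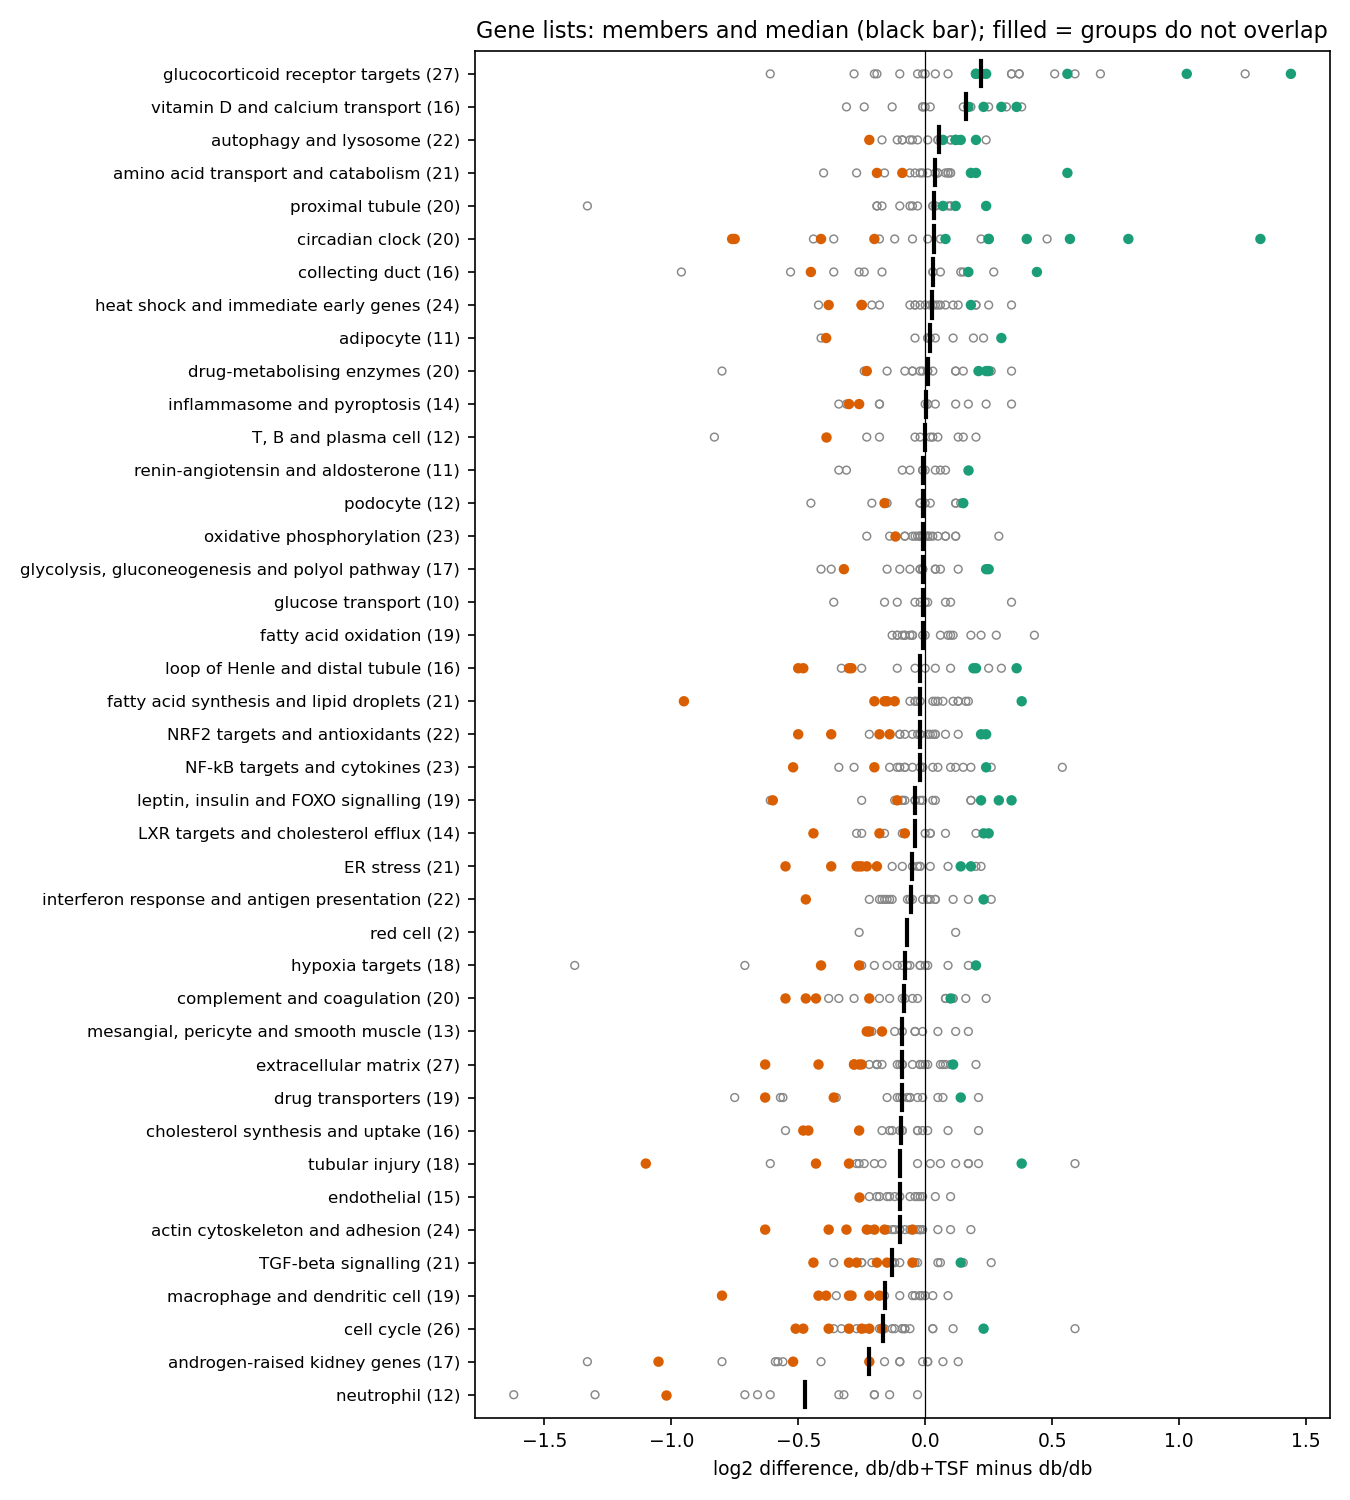
Each circle is a tested member of a gene list, at its log2 difference, db/db+TSF minus db/db, on the x axis; filled circles have db/db and db/db+TSF arrays that do not overlap, black bars are list medians and the number tested is in parentheses. Medians run from -0.47 for neutrophil markers, set by db/db replicate 3, to 0.22 for glucocorticoid receptor targets, and 0 members passed the adjusted threshold in any list.

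Lipid genes shared no direction. Pnpla2, the triglyceride lipase ATGL that FOXO factors raise, was even within groups, at 9.33, 9.33 and 9.34 in db/db and 9.68, 9.80 and 9.68 in db/db+TSF (difference 0.38, SE 0.11, limma adjusted p = 0.284). Fatty acid oxidation genes had 0 of 19 members without overlap, beside 20.1% of all genes, and a median of -0.01. Ppara, the nuclear receptor that drives them, measured 8.29, 7.98 and 7.71 against 8.24, 8.55 and 8.47. Fatty acid synthesis and lipid droplet genes had a median of -0.02. Lower without overlap were Srebf1 (-0.20), Dgat1 (-0.16), Acaca (-0.15), Fads1 (-0.12) and Cd36, 5 of 21 (12.3% over all genes). Pnpla2 was the 1 higher without overlap (7.81% over all genes).

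Cholesterol synthesis and uptake genes lay below 0 in 13 of 16 cases (56.1% over all genes). The median was -0.10, -0.07 after quantile normalization, -0.06 without db/db+TSF replicate 2 and -0.15 without db/db replicate 3. Stard4, which carries cholesterol within cells, measured 6.51, 6.49 and 6.58 against 5.95, 6.10 and 6.09, and Sqle, the squalene epoxidase gene, 6.63, 6.53 and 6.61 against 6.30, 5.90 and 6.18. Mvd differed by -0.26. In the LXR list, the efflux pump gene Abcg1 measured 5.69, 5.74 and 6.12 against 5.46, 5.36 and 5.42, whereas Abca1 differed by 0.20 (95% interval -0.19 to 0.60) and the receptor gene Nr1h3 by -0.09. Of the 14 genes of the LXR list, the bile acid genes Nr1h4 (0.25) and Cyp27a1 (0.23) were the 2 higher without overlap (7.81% over all genes). Abcg1, Npc1 (-0.18) and Npc2 (-0.08) were the 3 lower (12.3% over all genes), and the list median was -0.04.

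Glucose handling differed little in most members. Of 17 glycolysis, gluconeogenesis and polyol pathway genes, 2 were higher without overlap (7.81% over all genes) and 1 lower (12.3%), with a median of -0.01. The higher ones were the gluconeogenic genes Pck1 (11.70, 11.57 and 11.48 against 11.89, 11.86 and 11.73) and G6pc (11.65, 11.46 and 11.74 against 11.87, 11.88 and 11.85). The lower one was the glycolytic Pkm (9.46, 9.37 and 9.92 against 9.37, 9.18 and 9.25), with the nearest arrays both at 9.37. Slc5a2, the main glucose reabsorption carrier SGLT2, differed by 0.10, and 0 of 10 glucose transport genes had groups without overlap, beside 20.1% of all genes. Of 19 leptin, insulin and FOXO signalling genes, 12 lay below 0 (56.1% over all genes), and the median was -0.04. Foxo3 (0.34), Irs2 (0.29) and Foxo1 (0.22) were the 3 higher without overlap (7.81% over all genes). Akt1 (-0.11) and Igfbp1 were the 2 lower without overlap (12.3% over all genes). Igfbp1, which insulin represses, measured 6.56, 6.99 and 6.65 against 5.80, 6.49 and 6.11. Oxidative phosphorylation genes had a median of -0.01, and all 23 had a 95% interval within 2-fold.

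Among amino acid genes, Gldc, the glycine cleavage enzyme, measured 9.91, 9.77 and 10.05 in db/db and 10.47, 10.49 and 10.44 in db/db+TSF, with db/m at 9.21 ± 0.54 (SD, n = 3); its difference was 0.56 (SE 0.21, limma adjusted p = 0.362). Of 19 drug transporter genes, 15 lay below 0 (56.1% over all genes). The multidrug efflux pump genes Abcb1a (5.83, 5.97 and 5.97 against 5.57, 5.55 and 5.58) and Abcb1b (6.92, 6.79 and 6.60 against 6.46, 5.67 and 6.30) were the 2 lower without overlap (12.3% over all genes), and both lay above db/m in each db/db group. Drug-metabolising enzyme genes had a median of 0.01, with Cyp1a1, a target of the aryl hydrocarbon receptor, dim at 3.02, 3.28 and 3.12 against 3.40, 3.31 and 3.49, and the receptor gene Ahr itself at 5.87, 5.90 and 5.87 against 5.72, 5.58 and 5.65.

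Androgen-raised genes of the male kidney lay below 0 in 13 of 17 cases (56.1% over all genes). The 3 lower without overlap were Cyp7b1, Timd2 and Cndp2, 3 of 17 beside 12.3% of all genes. The median was -0.22, against -0.02 over all genes. It was -0.23 after quantile normalization, -0.12 without db/db+TSF replicate 2 and -0.18 without both arrays. Timd2 measured 6.98, 7.18 and 6.67 against 6.32, 6.63 and 6.31. All 3 were highest in db/m.

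Oxidative stress genes had a median of -0.02. Keap1, the adaptor that degrades NRF2, measured 6.01, 6.10 and 5.97 against 5.76, 5.60 and 5.24, but its dimmer probe set differed by -0.08. Cybb, the NADPH oxidase subunit gene of phagocytes, measured 6.16, 6.37 and 6.30 against 5.97, 5.79 and 5.96. This is the order of the macrophage markers without overlap. The part of those cells in Cybb was not tested. Of the hypoxia targets, 14 of 18 lay below 0 (56.1% over all genes), among them Epo with its single high array, and Vegfa. The hypoxia median was -0.08, and -0.05 after quantile normalization. It was -0.01 without db/db replicate 3 and 0.01 without both arrays.

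Cell cycle genes lay below 0 in 21 of 26 cases (56.1% over all genes), 7 of them without overlap (12.3% over all genes), and Birc5 (0.23) was higher without overlap. The median was -0.16, against -0.02 over all genes, and -0.05 without both arrays. Top2a, a marker of dividing cells, measured 3.91, 3.81 and 4.44 against 3.67, 3.29 and 3.75. Mcm6, a replication helicase subunit, measured 5.46, 5.44 and 5.94 against 5.27, 4.71 and 5.33. In both, db/db replicate 3 was highest and db/db+TSF replicate 2 lowest. Prc1 (-0.38), Ccnd1 (-0.30), Cdkn1b (-0.25), Ccnd2 (-0.22) and Bub1b (-0.17) complete the 7.

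Actin cytoskeleton and adhesion genes lay below 0 in 21 of 24 cases (56.1% over all genes), 7 without overlap (12.3% over all genes), with a median of -0.10 against -0.02 over all genes (-0.08 after quantile normalization, -0.05 without both arrays). Palld led them. Actb measured 9.09, 9.15 and 9.17 in db/db and 8.97, 8.84 and 8.90 in db/db+TSF, and Ctnnb1, the beta-catenin gene, 9.34, 9.36 and 9.28 against 9.15, 9.12 and 9.11. Cnn2 (-0.31), Actg1 (-0.38), Actn4 (-0.16) and Rhoa (-0.05) were the others; further probe sets of Actg1 differed by -0.42 to 0.04. Heat shock and immediate early genes had a median of 0.02, with the chaperone gene Hsph1 at 6.63, 6.59 and 6.48 against 6.44, 6.0 and 6.13.

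The direction of the differences depended on how bright a gene was and on how arrays were scaled. Genes were split into tertiles by mean level, at 4.17 and 6.42. At an unadjusted p under 0.05, 78.1% of the dim genes (538 of 689) were higher in db/db+TSF, but 27.9% of the middle genes (240 of 860) and 19.8% of the bright genes (105 of 530); over all, 42.5%. Array medians were 10.3, 10.4 and 10.5 intensity units in db/db and 10.6, 11.2 and 10.8 in db/db+TSF, the median array value lying among dim genes. With array medians set equal the shares were 47.9%, 12.0% and 6.33%, and 17.6% over all 2616 genes at that p. After quantile normalization they were 54.0%, 39.2% and 39.1%, and 44.0% over 1705 genes, 1442 of which were also counted on the deposited scale. The dimmest tertile had the highest share under each of the 3 scalings, but the split between higher and lower genes was not, so the excess of lower genes among bright ones is given with its scaling. List medians close to 0 took the other sign under 1 of these scalings: the medians of the proximal tubule, collecting duct, clock, adipocyte, drug-metabolising enzyme, heat shock and amino acid lists were below 0 with array medians set equal (-0.02 to -0.05), and those of the podocyte (0.05), glucose transport (0.01), fatty acid synthesis (0.02) and NF-kB (0.02) lists were above 0 after quantile normalization. No other list median changed sign under either scaling.

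**Figure D5:**
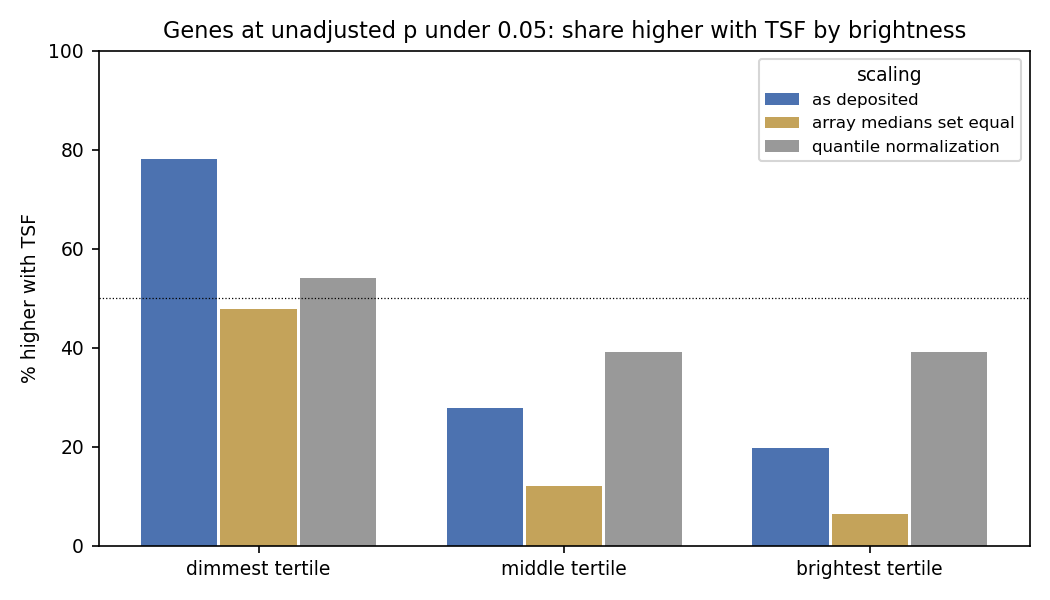
Bars give the share (%) of genes at an unadjusted p under 0.05 that were higher in db/db+TSF than in db/db, in 3 tertiles of mean level, for the deposited values and for 2 other scalings of the arrays; the dotted line is 50%. On the deposited values the share goes from 78.1% in the dimmest to 19.8% in the brightest tertile, and after quantile normalization from 54.0% to 39.1%.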

How the data were processed

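The values deposited by the authors are linear intensities of probe sets. Per the submitters' processing notes, Expression Console and Transcriptome Analysis Console (Affymetrix) were used; background correction and normalization: not given in the sources used here. Of 41345 probe sets, 23521 had 1 gene symbol in the platform annotation, 1814 had several and 16010 were not named; those with 1 symbol covered 22180 genes, and the brightest probe set stood for its gene. Entrez identifiers of 23328 probe sets matched RefSeq, which changed 0 symbols. Values were taken as log2(value + 1), and genes with a mean below 2.65, the 30th percentile over probe sets, were left out, which left 17740. No detection calls were used, so a dim value cannot be told from background. No depth applies to arrays: their number limits the precision.

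A linear model with a mean for each group used all 9 arrays (limma 3.58.1, R 4.3.3, lmFit and eBayes), with Benjamini-Hochberg adjustment over all genes and a threshold of 0.05. P-values measure the spread between the arrays. Gene lists (41, with 755 of 826 entries on the array) carry no test and are described by counts and medians. The comparison, its members and lists were chosen with earlier results of these data known. Named genes, which leave out clone and model numbers and olfactory, vomeronasal and microRNA genes, are the 10 largest differences at an unadjusted p under 0.05 without overlap and the 10 smallest p per direction, up to 4 members of smallest p per list and a set of diabetic kidney genes. Mir99b and other list members without overlap were named after their values were seen. Promoter windows and microRNAs are RefSeq's (GRCm38.p6); 158 of the 203 genes of the naming rule had a window, and 8 motifs were searched. The fits were tested on simulated data. Figures used matplotlib 3.10.9.

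Same-numbered db/db and db/db+TSF arrays were not taken as pairs. Alternatives covered the probe set choice, filter, scaling, pseudocount, variance model, array weights, arrays fitted, replicate block, threshold and leaving out arrays.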

Additional observations from a re-analysis of the deposited data

How the results depend on the processing

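The count of genes past the threshold was 0 in each of the 9 fits without 1 array and in the other alternatives, with the smallest limma adjusted p between 0.0704 (array weights) and 0.418; 35 genes had an adjusted p under 0.2. The 2079 genes at an unadjusted p under 0.05 became 1315 to 2513 without 1 array (1315 without db/db+TSF replicate 2), 1393 without both arrays that stand apart and 1705 to 2940 otherwise. Of them 136 differed by at least 1.5-fold and 14 by at least 2-fold. Genes whose groups do not overlap were 20.1% in all, 27.6% to 36.3% without 1 array and 43.35% without both, where fewer arrays make overlap rarer. The 95% interval lay within 2-fold for 96.8% to 99.2% of genes. The replicate numbers showed no pairing (correlations of deviations -0.03, 0.14 and 0.01), and a fit with the replicate block had 0 genes past the threshold and 1975 at an unadjusted p under 0.05.

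Of 203 named genes, 0 passed in any of 22 alternatives and 11 turned sign in at least 1. Sqstm1 was -0.05 with array medians set equal and 0.00 after quantile normalization. Without both arrays Ace was 0.14, Agt 0.20, Fabp4 0.10, Ifit1 -0.03, Lcn2 0.56, Ptgds 0.07 and Slc5a2 0.00. Over the fits without arrays the ranges were -0.65 to 0.14 for Ace, -0.65 to 0.20 for Agt, -0.12 to 0.02 for Ccl2, -0.21 to 0.04 for Col1a1, -0.63 to 0.10 for Fabp4, -0.04 to 0.37 for Hemgn, -0.03 to 0.41 for Ifit1, -1.11 to 0.56 for Lcn2, -0.70 to 0.07 for Ptgds, 0.00 to 0.14 for Slc5a2 and -0.01 to 0.06 for Sqstm1. Of 41 list medians, 24 moved by at least 1 SD in at least 1 alternative; the cause was not tested.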

Other observations

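Some gene classes, sorted by symbol after the values were seen, had shares above 0 unlike the 43.9% of all genes tested. Of 336 zinc finger protein genes named Zfp, 102 (30.4%) lay above 0, with a median difference of -0.08. The share above 0 was 33.6% after quantile normalization. Without overlap, 60 of them were lower and 11 higher, beside 12.3% and 7.81% of all genes. Of 224 olfactory receptor genes, which kidney expresses little and which averaged 3.22 on the log2 scale, 155 (69.2%) lay above 0, and 60.7% after quantile normalization. Of 204 microRNA genes 141 (69.1%) lay above 0, and 61.3% after quantile normalization. The 68 small nucleolar RNA genes averaged 6.47, and 66.2% of them lay above 0 under both scalings. Of 65 cytochrome P450 genes, 37 lay above 0. Among the 65, 8 were higher without overlap and 1 lower, beside 7.81% and 12.3% of all genes.

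Olfr437, an olfactory receptor gene, had the same limma adjusted p of 0.145 as Rab30, at 2.87, 2.53 and 2.82 in db/db and 3.33, 3.58 and 3.81 in db/db+TSF. The pancreatic secretory gene Sycn had the largest negative difference of all genes tested, -1.70, at 7.02, 6.11 and 7.99 against 6.38, 3.87 and 5.78, and -0.49 without both arrays that stand apart. The probe sets of Cycs, the cytochrome c gene, gave differences from -0.04 to 1.02, the 1.02 coming from a probe set dimmer than the one used.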
